A study of Mus musculus with 6 samples.

Results

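The guanylate-binding proteins (GBPs) are a family of large GTPases, and the 10 mouse genes Gbp2, Gbp2b, Gbp3, Gbp4, Gbp5, Gbp6, Gbp7, Gbp8, Gbp9 and Gbp10 are described here in cultured neural stem and progenitor cells. They were chosen by name, with results from these same libraries already known. All 10 were found among the 17254 gene identifiers of the data, and all 10 were among the 12813 genes that passed the filter on low counts. RNA was sequenced in 3 groups of 2 libraries, all taken at 48 h from mouse cells grown in N2 medium with EGF and bFGF. The groups are control (libraries numbered 8 and 11), PQ (9 and 12) and NAC (10 and 13), with the lower number called replicate 1 here. The labels give neither the full names of the 2 agents nor a dose, a mouse strain, an age or the state of the control beyond its name. The series text states that the treatments were meant to set the intracellular redox potential to different levels. Whether both libraries of a group stem from separate cultures is not stated, so errors and p-values reflect library-to-library spread only, and this may be technical.

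Guanylate-binding proteins belong to the dynamin superfamily. Interferon gamma is their best known inducer, acting in part through the transcription factor IRF1, and type I interferons induce several members as well. The proteins bind GTP, assemble into coats on the membranes of vacuoles that hold microbes and on bacterial surfaces, and help to bring inflammatory caspases to them. Gbp2, Gbp2b and Gbp5 carry a lipid anchor added by prenylation, whereas the other members lack that signal.

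The summed expected counts were 9680436 to 10698241 per library, and 10 of the 10 members had counts in every library, from 9.66 (Gbp8, control replicate 1) to 2283 (Gbp9, PQ replicate 2). The marker genes of neural stem cells were present, 12 of 12. Their summed levels were 7438 and 7549 CPM (counts scaled to library size) in control. They were 7744 and 7936 with PQ and 5791 and 5862 with NAC. The largest part came from Vim, at 4306 and 4058 CPM in control, 4871 and 4594 with PQ and 2467 and 2489 with NAC. Of the 12, 1 rose and 4 fell with PQ, 1 rose and 3 fell with NAC, and 3 were higher and 7 lower in PQ against NAC (edgeR, adjusted p under 0.05). Among all tested genes 9.07% rose and 8.8% fell with PQ, and 8.65% rose and 9.26% fell with NAC. In PQ against NAC 15.5% of all tested genes were higher and 15.1% lower. Of the family's 60 deposited expected counts 59 were not whole numbers, where 20.9% to 21.4% of all values in a library were not. The reason for this was not tested. In the annotated transcripts 62.3% of the 50-base windows of Gbp6 also occurred in Gbp10, and 45.8% of those of Gbp10 in Gbp6. The corresponding shares were 9.4% for Gbp8 with Gbp4, 4.9% for Gbp3 with Gbp7, 2.1% for Gbp2 with Gbp2b and 0.0% for Gbp5 with any other member. Counting windows found in any other member, the shares were 19.2% for Gbp8, 10.0% for Gbp4 and 6.8% for Gbp9. The coding sequences of Gbp6 and Gbp10 were 98.4% identical over 1833 aligned bases, and those of Gbp2 and Gbp2b 82.5% identical over 1767. These values come from an annotated transcript of each gene, of 2604 bases for Gbp6, where its deposited length was 4329. For Gbp9 the lengths were 4381 and 3633. Sharing in the transcripts that were counted may therefore differ for these genes. The exons of Gbp6 and Gbp10 also shared 66.3% and 50.8% of their bases with the annotated gene Gm43302 on the same strand. Single values of Gbp6 and Gbp10 are therefore uncertain, and the sum of the pair is given beside them.

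How alike the near-copies are can be seen in the stretch of coding sequence that holds the codons of the P-loop, the GTP-binding motif, which was found in 10 of the 10 members. The 60 bases below are from GENCODE transcripts, numbered from the start codon, 115 to 174 in Gbp2 and Gbp2b and 109 to 168 in Gbp6 and Gbp10. Capitals mark the bases that differ within each pair.
Gbp2: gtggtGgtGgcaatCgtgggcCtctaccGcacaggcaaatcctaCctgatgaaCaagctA
Gbp2b: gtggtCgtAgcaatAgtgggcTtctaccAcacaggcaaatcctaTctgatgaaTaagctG
Gbp6: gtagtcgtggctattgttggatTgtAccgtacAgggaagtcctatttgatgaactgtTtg
Gbp10: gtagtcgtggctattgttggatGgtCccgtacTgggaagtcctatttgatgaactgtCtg
In this stretch Gbp2 and Gbp2b differed at 8 bases and Gbp6 and Gbp10 at 4.

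**Figure D1:**
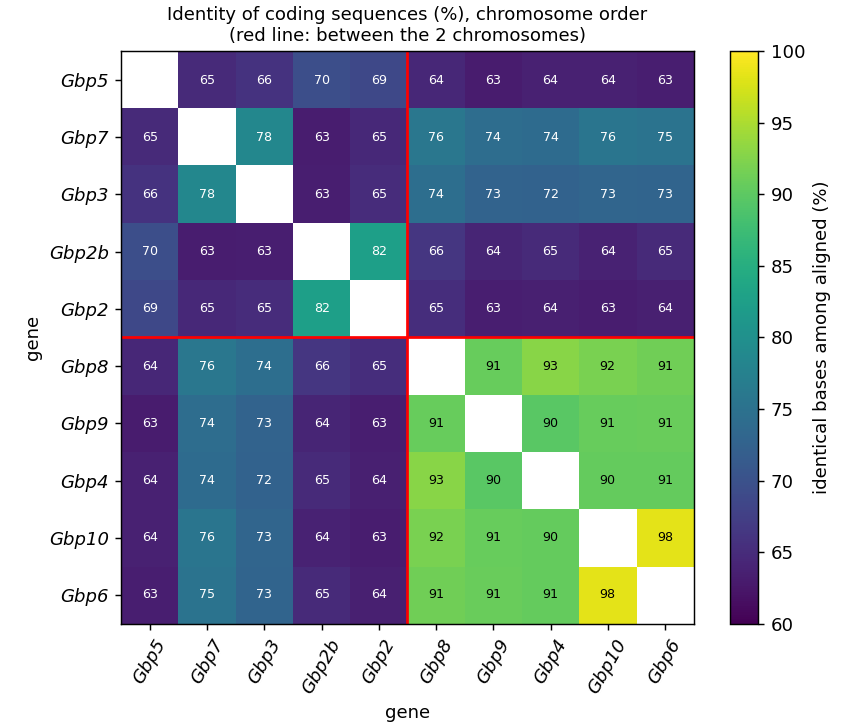
Percentage of identical bases among aligned coding bases for each pair of the 10 members, with genes in chromosome order on both axes and a red line between the chromosome 3 and chromosome 5 genes. The chromosome 5 genes are 89.7% to 98.4% identical to each other, and the highest value on chromosome 3 is 82.5% for Gbp2 with Gbp2b.

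Taken as 1 quantity, guanylate-binding protein RNA was about 2-fold higher in both treated groups than in control. The summed level of the 10 members was 310.0 and 335 CPM in the control libraries, 673 and 778 CPM with PQ, and 696 and 674 CPM with NAC. Both control libraries lay far below all 4 treated libraries, and the PQ and NAC ranges overlapped. The fold was 2.25 with PQ (log2 fold change 1.17 ± 0.10, SE, n = 2 libraries per group) and 2.12 with NAC (1.09 ± 0.10). In bulk RNA a higher level from more expressing cells and from more RNA per cell cannot be told apart.

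Each of the 10 members had both PQ libraries above both control libraries, as 29.0% of all tested genes had, and each had both NAC libraries above both control libraries, as 28.3% of all genes had. With PQ 10 of 10 were past the threshold (adjusted p under 0.05 in edgeR's quasi-likelihood fit over all genes) in the higher direction, where 9.07% of all tested genes were. With NAC 9 of 10 were, against 8.65% of all tested genes, and the other one was Gbp8. Nothing is read from these counts, since the family was picked with these comparisons in view, and both comparisons use the same control libraries. The members' median log2 fold change was 1.32 with PQ and 1.29 with NAC, where the median of all genes was 0.0 in size in both.

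**Figure D2:**
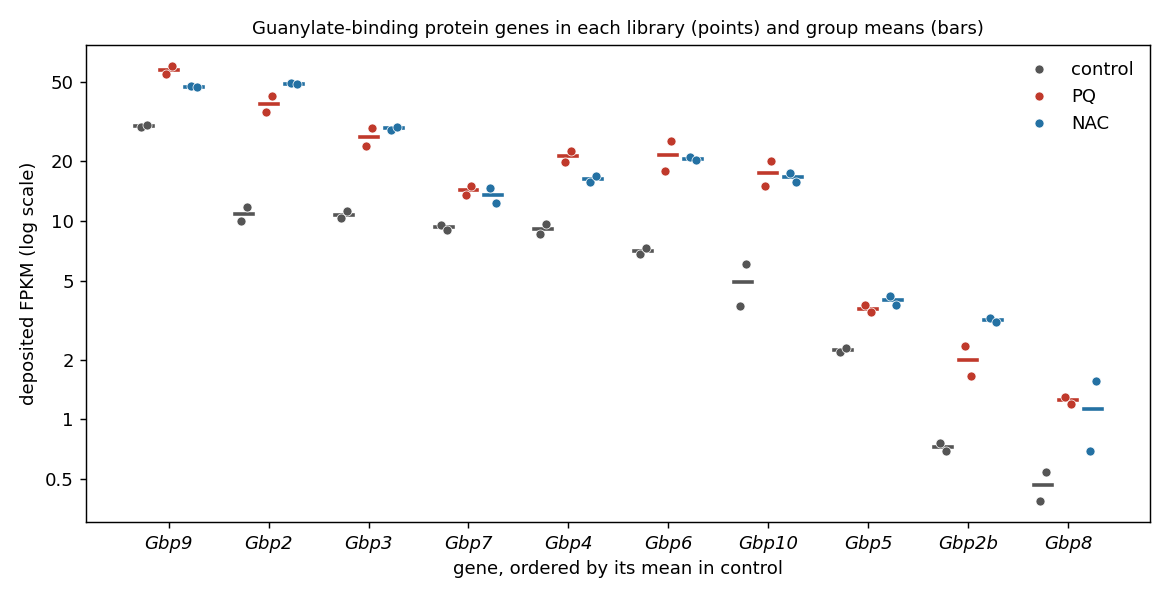
Deposited FPKM of each member in each library on a log scale, with points for libraries and bars for the mean of 2, and genes ordered by their mean in control. For every member the 2 control points lie below the 4 treated points, from Gbp9 (29.75 and 30.48 in control) to Gbp8 (0.39 and 0.54 in control).

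Among the prenylated members, Gbp2 stood far apart from control. Gbp2, which binds to parasite-holding vacuoles, measured 25.2 and 29.8 CPM in control, 88.5 and 104 CPM with PQ and 121 and 119 CPM with NAC. The 3 groups did not overlap, and NAC was the highest. This was a fold of 3.5 with PQ (log2 1.81 ± 0.12) and of 4.37 with NAC (log2 2.13 ± 0.12), the latter being the largest fold of any member. Gbp2b, the mouse gene also known as Gbp1, was a low-abundance transcript with 2.22 and 1.97 CPM in control. It measured 6.66 and 4.66 CPM with PQ and 9.08 and 8.61 CPM with NAC, in the same order of groups as Gbp2. Its log2 fold change was 1.42 ± 0.28 with PQ and 2.07 ± 0.26 with NAC. The sum of Gbp2 and Gbp2b was 27.4 and 31.8 CPM in control, 95.1 and 109 CPM with PQ, and 130 and 127 CPM with NAC. The pair as a whole was therefore 3.45-fold higher with PQ and 4.35-fold higher with NAC, close to the folds of Gbp2, which supplied nearly all of the reads.

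Gbp5, the prenylated member known for promoting NLRP3 inflammasome assembly, differed less. It measured 6.67 and 7.17 CPM in control, 11.5 and 10.4 CPM with PQ and 12.6 and 11.3 CPM with NAC. All 4 treated libraries were above control, and the PQ and NAC ranges overlapped. The folds were 1.57 with PQ (log2 0.65 ± 0.18) and 1.73 with NAC (log2 0.79 ± 0.18). Gbp5 fell back below the threshold for PQ without control replicate 1, PQ replicate 1 or PQ replicate 2 (log2 0.60, 0.58 and 0.73), and for NAC without NAC replicate 1 (0.71).

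Gbp3 and Gbp7 lie next to each other and are 78.5% identical in coding sequence, yet they differed in the size of their change. Gbp3 measured 27.6 and 30.2 CPM in control, 63.7 and 76.5 CPM with PQ and 75.3 and 77.6 CPM with NAC. That was 2.43-fold higher with PQ (log2 1.28 ± 0.12) and 2.64-fold higher with NAC (log2 1.40 ± 0.12). Gbp7, reported to act in assembly of the phagocyte NADPH oxidase, measured 54.2 and 51.6 CPM in control, 76.1 and 83.2 CPM with PQ and 81.6 and 67.7 CPM with NAC. It had the smallest fold of the family in both comparisons, 1.51 with PQ (log2 0.59 ± 0.11) and 1.41 with NAC (log2 0.50 ± 0.11). Its 2 NAC libraries were also far apart, and without NAC replicate 1 its NAC difference was 0.36 on the log2 scale and no longer past the threshold.

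Gbp9 was the member with the most reads in every library. It measured 110.4 and 114 CPM in control, 202 and 217 CPM with PQ and 173 and 170.2 CPM with NAC. The 3 groups were again apart, this time with PQ the highest. The folds were 1.87 with PQ (log2 0.90 ± 0.09) and 1.53 with NAC (log2 0.61 ± 0.09). Gbp4 had the same order of groups, with 39.3 and 44.4 CPM in control, 90.3 and 100.2 CPM with PQ and 70.1 and 74.96 CPM with NAC. Its folds were 2.28 with PQ (log2 1.19 ± 0.11) and 1.73 with NAC (log2 0.79 ± 0.11).

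The near-copies Gbp6 and Gbp10 were about 3-fold higher with either agent. Gbp6 measured 30.02 and 32.5 CPM in control, 78.1 and 109 CPM with PQ and 90.5 and 86.5 CPM with NAC. Gbp10 measured 13.4 and 22.0 CPM in control, 53.4 and 70.4 CPM with PQ and 61.4 and 54.7 CPM with NAC. For both genes PQ replicate 2 was the highest of the 6 libraries and PQ replicate 1 lay below both NAC libraries. The sum of the pair, which does not depend on how reads were split between them, was 43.5 and 54.5 CPM in control, 131 and 179 CPM with PQ, and 152 and 141 CPM with NAC. The sum was 3.17-fold higher with PQ (log2 1.67 ± 0.14) and 2.99-fold higher with NAC (log2 1.58 ± 0.14). Taken singly, the log2 fold changes were 1.58 ± 0.14 and 1.5 ± 0.14 for Gbp6, and 1.81 ± 0.18 and 1.71 ± 0.18 for Gbp10, with PQ and NAC in that order.

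Gbp8 was the rarest member, with 9.66 to 38.13 expected counts per library. It measured 1.01 and 1.35 CPM in control, 3.23 and 2.85 CPM with PQ, and 1.67 and 3.76 CPM with NAC. Its NAC libraries were more than 2-fold apart, and the lower one lay close to control. The log2 fold change was 1.35 ± 0.43 with PQ and 1.18 ± 0.43 with NAC, the widest errors in the family. The PQ difference was no longer past the threshold without any 1 of the control or PQ libraries (log2 1.16 to 1.58), and the NAC difference passed it without NAC replicate 1 (log2 1.66).

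**Figure D3:**
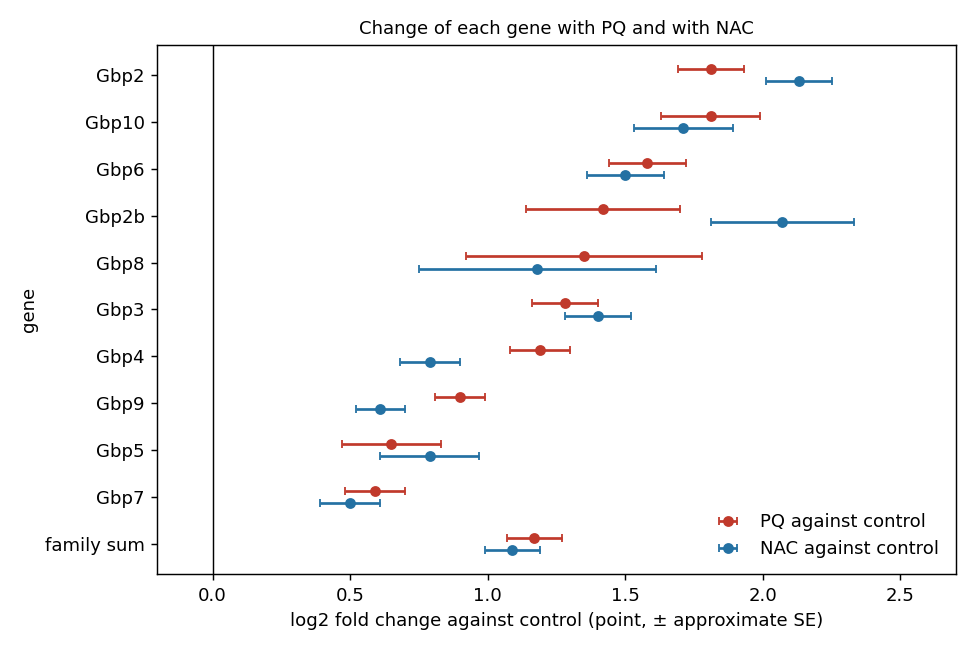
Log2 fold change of each member and of the family sum with PQ and with NAC, each against control, with points for the estimate and bars for ± the approximate standard error (n = 2 libraries per group). All points lie to the right of 0, from 0.50 (Gbp7 with NAC) to 2.13 (Gbp2 with NAC), and both comparisons share the control libraries.

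Set directly against each other, the agents had family sums that lay within their error of each other, and 4 members were past the threshold. Gbp4 and Gbp9 were higher with PQ than with NAC, by 0.39 ± 0.10 and 0.29 ± 0.09 on the log2 scale. Gbp2 and Gbp2b were lower with PQ than with NAC, with log2 differences of -0.32 ± 0.11 and -0.65 ± 0.22, and their sum had -0.34 ± 0.10. These 4 of the 10 members were past the threshold and had groups that did not overlap, where 30.6% of all tested genes were past the threshold (15.5% higher and 15.1% lower with PQ) and 66.0% had groups apart. Nothing about the family is read from this count, which is near the first share and below the last. The other 6 members had log2 differences between -0.13 ± 0.17 (Gbp5) and 0.17 ± 0.36 (Gbp8), and their groups overlapped. The family sum differed by 0.08 ± 0.09 on the log2 scale, and Gbp6 with Gbp10 by 0.08 ± 0.13.

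The calls between the agents changed when 1 library was left out. Without NAC replicate 1 the number of members past the threshold was 0, without PQ replicate 2 or NAC replicate 2 it was 1, and without PQ replicate 1 it was 2. The direction of the 4 members was the same in each of these fits. In the fits without 1 library that lost them, Gbp2b had -0.69 to -0.41, Gbp2 -0.33 to -0.21, Gbp4 0.32 and 0.35, and Gbp9 0.24 to 0.34. For Gbp4 and Gbp9 the difference thus stayed near its full-fit size while the call was lost. DESeq2 and limma, run on all 6 libraries, kept Gbp4 and Gbp9 past the threshold but lost Gbp2 and Gbp2b. The sum of Gbp2 and Gbp2b stayed past it by both.

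On the deposited FPKM scale, which divides by transcript length and so allows genes to be compared, Gbp9 led in control with 29.75 and 30.48. Gbp2 (10.04 and 11.77) and Gbp3 (10.29 and 11.17) followed and overlapped each other, as did Gbp7 (9.03 and 9.55) and Gbp4 (8.58 and 9.62). Below them came Gbp6, Gbp10, Gbp5, Gbp2b and Gbp8, each separate from the next, with Gbp8 at 0.39 and 0.54. With PQ the order began with Gbp9 (54.87 and 60.14) and Gbp2 (35.49 and 42.62). From Gbp3 down through Gbp6, Gbp4 and Gbp10 to Gbp7 each PQ range overlapped the next, so that their order is not resolved. With NAC Gbp2 (49.43 and 48.92) was at the top, above Gbp9 (47.65 and 47.5), and Gbp10 and Gbp4 overlapped. The last 3 places were held by Gbp5, Gbp2b and Gbp8 in all 3 groups. The places of Gbp6 and Gbp9 rest on the deposited lengths of 4329 and 3633 bases, where the annotated transcripts used above had 2604 and 4381.

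The make-up of the family shifted along with its level. Gbp2 supplied 12.74% ± 0.71 (SD, n = 2) of the family's summed FPKM in control, 19.09% ± 0.25 with PQ and 24.42% ± 0.05 with NAC. Gbp9 supplied 35.26% ± 1.40 in control, 28.21% ± 1.45 with PQ and 23.63% ± 0.17 with NAC. In each case the libraries of the 3 groups did not overlap, so that the 2 shares moved in opposite directions from control through PQ to NAC. Gbp7 went from 10.9% ± 1.05 in control to 7.01% ± 0.28 with PQ and 6.73% ± 0.77 with NAC. Gbp6 with Gbp10 went from 13.91% ± 1.54 to 18.95% ± 2.17 and 18.45% ± 0.69. Gbp4 held 10.64% ± 0.26 in control and 10.35% ± 0.29 with PQ, and 8.09% ± 0.52 with NAC. Shares of a total depend on each other, and these are descriptions without a test.

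**Figure D4:**
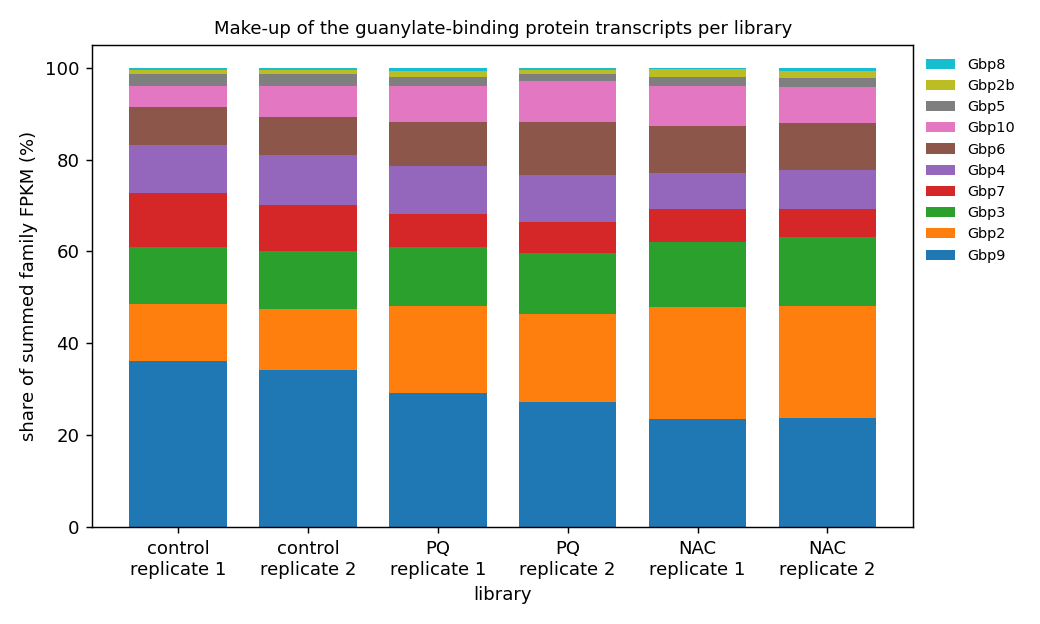
Share of each member in the summed deposited FPKM of the family, in percent, as stacked bars for the 6 libraries. The share of Gbp9 is 36.25% and 34.27% in control and 23.51% and 23.75% with NAC, and that of Gbp2 is 12.23% and 13.24% in control and 24.39% and 24.46% with NAC.

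The members lie in 2 clusters on the mouse genome (RefSeq, GRCm38.p6). Gbp5, Gbp7, Gbp3, Gbp2b and Gbp2 stand in this order on the plus strand of chromosome 3, over 141 kb (chr3:142496934-142638008). Gbp8, Gbp9, Gbp4, Gbp10 and Gbp6 stand on the minus strand of chromosome 5, over 283 kb (chr5:105012513-105295871). The 2 clusters had like changes against control, with medians of 1.28 (chromosome 3) and 1.35 (chromosome 5) on the log2 scale with PQ, and 1.40 and 1.18 with NAC. Between the agents the chromosome 3 members ran from -0.65 to 0.09 and the chromosome 5 members from 0.08 to 0.39 in PQ against NAC. Gbp2 and Gbp2b, the members lower with PQ, are on chromosome 3, and Gbp4 and Gbp9, the members higher with PQ, are on chromosome 5. That split was noticed after the values were seen and was not tested.

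The 12 nearest tested genes outside the clusters, 3 on each side of each, were read with Gbp11 left out. Gbp11, a further gene of the family, had log2 fold changes of 0.99 ± 0.33 with PQ and 0.98 ± 0.32 with NAC. Not all of the 12 were close. Tspan5 and Rap1gds1 end at chr3:138904433 and chr3:139075228, and the cluster begins at chr3:142496934. Of the 12, 3 fell with PQ and 2 fell with NAC (by edgeR, at an adjusted p under 0.05), and the others did not pass. Among all tested genes 8.8% fell with PQ and 9.26% with NAC. The log2 fold changes of the 12 genes ran from -0.41 to 0.46 with PQ and from -0.74 to 0.40 with NAC. Those of the members ran from 0.59 to 1.81 and from 0.50 to 2.13. Those that fell were Tspan5, Rap1gds1 and Pkd2 with PQ (-0.41 ± 0.10, -0.37 ± 0.09 and -0.33 ± 0.10, edgeR adjusted p = 0.0083, 0.01 and 0.031) and Lrrc8b and Lrrc8c with NAC (-0.74 ± 0.10 and -0.52 ± 0.11, edgeR adjusted p = 2.7e-05 and 0.0026). Within each cluster all 5 members were higher than control in both libraries of each agent.

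Interferon-responsive genes commonly carry an interferon-stimulated response element (ISRE), in their promoters. RefSeq promoter sequence on GRCm38.p6 was at hand for 5 members, those of chromosome 3. The ISRE core, GAAA and a second GAAA with any 2 bases between them, was searched on both strands in the 250 bases before the start site. It was found in 5 of these 5, where 2.98% of 32851 promoters hold it. The 30-base windows around it are shown on the plus strand, on which the core reads TTTC, 2 bases, TTTC, with the matched bases in capitals.
Gbp5, chr3:142496759-142496788: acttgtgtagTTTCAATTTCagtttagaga
Gbp7, chr3:142530273-142530302: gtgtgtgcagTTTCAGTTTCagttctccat
Gbp3, chr3:142559992-142560021: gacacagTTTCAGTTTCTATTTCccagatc
Gbp2b, chr3:142594700-142594729: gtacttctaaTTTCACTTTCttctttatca
Gbp2, chr3:142620594-142620623: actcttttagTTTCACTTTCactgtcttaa
The core lay 59 to 50 bases before the RefSeq start in Gbp2, 53 to 44 in Gbp7 and 45 to 30 in Gbp3, which has 2 overlapping copies, and farther away in Gbp2b (137 to 128) and Gbp5 (165 to 156). Gbp2 and Gbp2b, the members with the highest folds with NAC, have the same 10 core letters as each other. Gbp7 and 1 copy in Gbp3 share a different core with each other, and their log2 fold changes with NAC were 0.50 and 1.40. The Gbp2 core falls in bases that GENCODE counts as exon. A second listed start of Gbp3 has no core.

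The gamma-activated site core TTCNNNGAA, named for its part in the response to interferon gamma, occurred in the promoters of Gbp5 and Gbp7, 2 times in each, and in 7.02% of all promoters. The kappa B core, GGGA and CC with any 4 bases between them, searched on both strands, occurred in Gbp5 alone of the 5, and in 17.6% of all promoters. Both promoters are printed because they hold more than 1 kind of core, and their capitals mark all cores found. That of Gbp5 is shown up to the first annotated exon base.
Gbp5, chr3:142496684-142496899, plus strand: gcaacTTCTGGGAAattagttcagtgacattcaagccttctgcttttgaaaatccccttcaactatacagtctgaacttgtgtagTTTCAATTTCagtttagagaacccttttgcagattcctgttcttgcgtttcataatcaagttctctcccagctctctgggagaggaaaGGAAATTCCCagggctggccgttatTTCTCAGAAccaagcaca
Gbp7, chr3:142530086-142530335, plus strand: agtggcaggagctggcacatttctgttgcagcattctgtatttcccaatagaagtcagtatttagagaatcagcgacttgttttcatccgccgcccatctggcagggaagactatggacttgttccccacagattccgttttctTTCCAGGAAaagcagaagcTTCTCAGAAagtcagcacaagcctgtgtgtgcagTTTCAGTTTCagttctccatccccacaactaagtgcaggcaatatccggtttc
Gbp5 and Gbp7, with these added letters, had the smallest folds of the chromosome 3 members, and Gbp2, Gbp2b and Gbp3, with the ISRE core alone of the 3 cores searched, had the largest. That order among 5 genes was noticed after the values were seen and was not tested. A match of letters is a description and no binding was measured.

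Genes of interferon gamma signalling were read next, from a list that, like the members, was chosen with earlier results of these data known. Of 11 listed genes 8 were tested. Among all tested genes 9.07% rose with PQ and 8.65% with NAC. Of the 8, 2 rose with PQ (median log2 -0.02) and 1 with NAC (median 0.14), the others not passing. With PQ these were the receptor chain Ifngr2 (log2 0.54 ± 0.11, edgeR adjusted p = 0.0018) and the transcription factor Irf1 (0.53 ± 0.12, adjusted p = 0.0036, or 0.1 without PQ replicate 2). With NAC it was Irf1 (0.70 ± 0.11, edgeR adjusted p = 0.00025). Between the agents Ifngr2 (0.38 ± 0.11, edgeR adjusted p = 0.011) was higher and the kinase Jak2 (-0.48 ± 0.11, adjusted p = 0.0024) was lower with PQ, and both were lost without PQ replicate 2 (0.084 and 0.069) and without NAC replicate 1 (0.1 and 0.069). Interferon gamma itself, Ifng, was not listed in any library.

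Of 9 tested genes of type I interferon signalling 4 rose with PQ (median log2 0.35), and 0 were called with NAC (median 0.08, by edgeR, with 1 of the 9 at an unadjusted p under 0.05, and 0 by DESeq2). Over all tested genes 9.07% rose with PQ, 17.9% were called with NAC and 15.5% were higher in PQ against NAC. Irf7, a master regulator of type I interferon induction, was at 21.2 CPM ± 4.04 (SD, n = 2) in control, 53.2 ± 8.88 with PQ and 18.0 ± 1.52 with NAC, and rose by log2 1.33 ± 0.15 with PQ (edgeR adjusted p = 1e-05). Usp18, a feedback inhibitor of the type I receptor, rose by log2 1.51 ± 0.19 with PQ (edgeR adjusted p = 3.3e-05). Irf9 (0.61 ± 0.14, edgeR adjusted p = 0.0044) and Stat2 (0.49 ± 0.11, adjusted p = 0.0058), subunits of the factor that binds the ISRE, rose with PQ as well, but not without PQ replicate 2 (adjusted p = 0.13 and 0.14). Compared directly, 5 of the 9 were higher with PQ than with NAC, namely Irf7 (1.56 ± 0.15, edgeR adjusted p = 4.9e-07), Usp18 (1.39 ± 0.19, adjusted p = 2e-05), the kinase Tyk2 (0.55 ± 0.13, adjusted p = 0.0036), Irf9 (0.51 ± 0.13, adjusted p = 0.0075) and Stat2 (0.42 ± 0.11, adjusted p = 0.009). Of these Tyk2, Irf9 and Stat2 were lost without NAC replicate 1 (adjusted p = 0.087, 0.084 and 0.063), and Irf9 and Stat2 without PQ replicate 2 (0.16 each).

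The immunity-related GTPases, a second family of interferon-induced GTPases, act on the same vacuoles as the guanylate-binding proteins. Of 10 tested 8 rose with PQ (median log2 1.27), 4 rose with NAC (median 0.48) and 5 were higher in PQ against NAC, the others not passing in each case (median 0.51, where that of the guanylate-binding proteins was 0.09). The shares over all tested genes were 9.07% higher with PQ, 8.65% higher with NAC and 15.5% higher in PQ against NAC. Igtp, at 10.7 CPM ± 0.788 in control, 31.6 ± 5.92 with PQ and 13.1 ± 0.201 with NAC, rose by log2 1.57 ± 0.16 with PQ and was 1.27 ± 0.16 higher with PQ than with NAC (edgeR adjusted p = 4.8e-06 and 7.7e-06), and Irgm2 had 0.92 ± 0.14 and 0.74 ± 0.14 in the same comparisons (adjusted p = 0.00028 and 0.00061). Irgm1, Iigp1 and Ifi47 rose with both agents, by 1.16 ± 0.14, 1.63 ± 0.22 and 2.57 ± 0.41 with PQ (edgeR adjusted p = 1.4e-05, 8e-05 and 0.00032) and by 0.65 ± 0.14, 0.97 ± 0.24 and 1.77 ± 0.45 with NAC (adjusted p = 0.0023, 0.007 and 0.0096). The near-copies Tgtp1 and Tgtp2 summed to 0.91 and 1.45 CPM in control, 5.2 and 6.65 CPM with PQ and 3.24 and 3.86 CPM with NAC, and single values of them are uncertain. Irgm1, Irgq and Iigp1 were also higher in PQ against NAC (0.51 ± 0.13, 0.41 ± 0.10 and 0.66 ± 0.20, edgeR adjusted p = 0.0063, 0.0048 and 0.017), but Irgm1 and Iigp1 not without PQ replicate 2 (0.26 and 0.31), Iigp1 not without NAC replicate 2 (0.11) and Irgq not without NAC replicate 1 (0.059). With NAC, Iigp1 and Ifi47 were lost without NAC replicate 1 (adjusted p = 0.061 and 0.054) and Ifi47 without control replicate 1 (0.1).

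**Figure D5:**
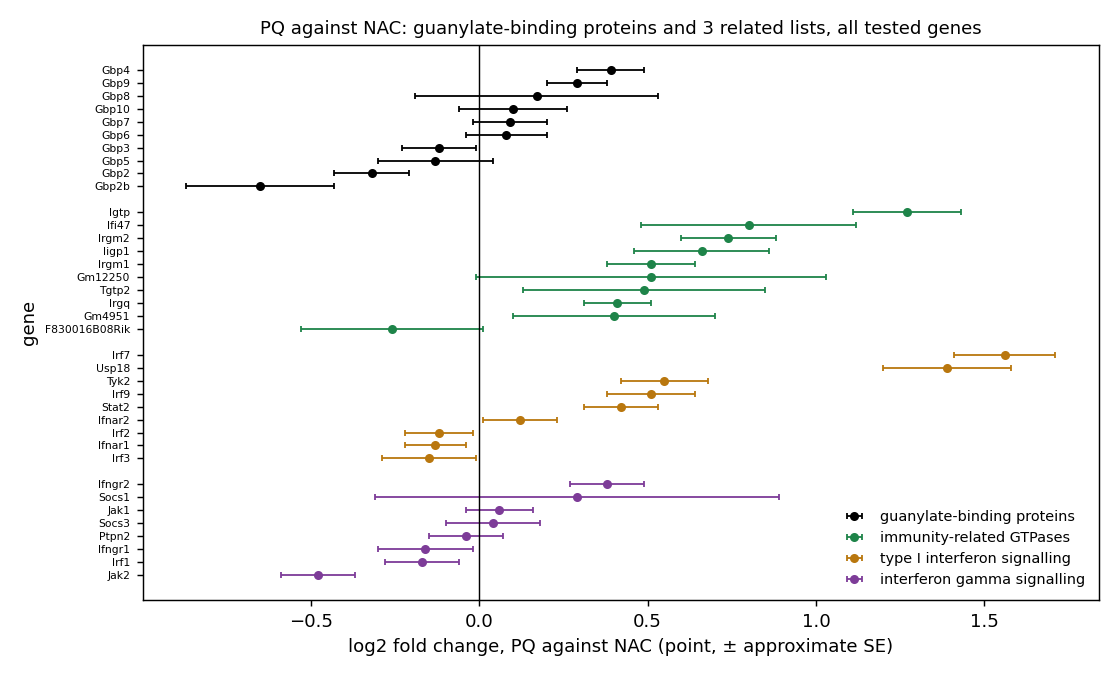
Log2 fold change of PQ against NAC for the 10 guanylate-binding proteins and for all tested genes of 3 related lists, with points for the estimate and bars for ± the approximate standard error (n = 2 libraries per group). The guanylate-binding proteins lie on both sides of 0 (-0.65 to 0.39), and Irf7 (1.56), Usp18 (1.39) and Igtp (1.27) lie far to the right.

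Of 8 tested inflammasome partners of the family 4 rose with PQ (Casp4, Casp1, Gsdmd and Il18, median of the list 0.31 on the log2 scale), and 2 rose (Casp4 and Casp1) and 1 fell (Naip5) with NAC (median 0.16). Among all tested genes 9.07% rose with PQ, and 8.65% rose and 9.26% fell with NAC. Casp4, the mouse caspase-11 that senses lipopolysaccharide, rose by 1.60 ± 0.25 with PQ and 1.85 ± 0.24 with NAC (edgeR adjusted p = 0.00025 and 2.5e-05). Casp1 rose by 1.22 ± 0.21 with PQ (edgeR adjusted p = 0.00047) and 0.65 ± 0.22 with NAC (adjusted p = 0.043, and up to 0.26 in the 5 of 6 fits without 1 library that lost it). The pore protein Gsdmd was 1.61 ± 0.27 higher with PQ than with NAC (edgeR adjusted p = 0.00019), and its 0.93 ± 0.25 with PQ against control (adjusted p = 0.016) was lost without PQ replicate 2 or control replicate 2 (0.23 and 0.12). Il18 (0.57 ± 0.16 with PQ, edgeR adjusted p = 0.019) was lost without PQ replicate 1 or control replicate 1 (0.15 each), and Naip5 (-0.81 ± 0.20 with NAC, adjusted p = 0.0082) without NAC replicate 2 or control replicate 2 (0.092 and 0.061).

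Of 12 tested genes of the Atg8 conjugation machinery, which guides guanylate-binding proteins to vacuoles, 3 rose with PQ (Gabarap, Gabarapl1 and Map1lc3b). With NAC 3 rose (Map1lc3b, Gabarapl1 and Atg7). The median was 0.13 in both, and 9.07% of all tested genes rose with PQ and 8.65% with NAC. Map1lc3b with NAC (0.59 ± 0.10, edgeR adjusted p = 0.00033) held without any 1 library, and the other 5 were each lost without at least 1, such as Gabarap with PQ (0.49 ± 0.10, adjusted p = 0.0024, and 0.095 without PQ replicate 2). Of 10 prenylation genes 2 rose (Fnta and Chml) and 1 fell (Fntb) with PQ, and 1 rose (Chml) and 2 fell (Fntb and Rabggta) with NAC. In each comparison 17.9% of all tested genes were called in either direction. DESeq2 called 0 of the 10 with PQ. Each of these was lost without at least 1 library, such as Fntb with NAC (-0.49 ± 0.12, edgeR adjusted p = 0.0061, and 0.091 without NAC replicate 1). Rabggta, a subunit of the enzyme that prenylates Rab proteins, was 1.15 ± 0.17 higher with PQ than with NAC (edgeR adjusted p = 6.2e-05) and held without any 1 library.

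Gbp11, a further gene of the family that is not one of the 10 members, was at 2.93 CPM ± 0.564 in control, 5.78 ± 2.58 with PQ and 5.78 ± 1.62 with NAC. Its log2 fold changes were 0.99 ± 0.33 with PQ (edgeR adjusted p = 0.041, and 0.57 without PQ replicate 2) and 0.98 ± 0.32 with NAC (adjusted p = 0.044, and 0.31 without NAC replicate 2). Adding Gbp11 left the family sum at 1.17 with PQ and 1.09 with NAC on the log2 scale. It was read with 5 other dynamin-like GTPases. By edgeR 3 of these 6 rose with PQ, 1 rose and 1 fell with NAC, and 3 were higher in PQ against NAC. DESeq2 and both limma fits called 1, 0 and 1 of them in these comparisons. Among all tested genes 9.07% rose with PQ, 8.65% rose and 9.26% fell with NAC, and 15.5% were higher in PQ against NAC. Of the 6 tested dynamin-like GTPases outside the 10 members, Mx2, an antiviral protein, rose by 1.55 ± 0.27 with PQ (edgeR adjusted p = 0.00057) and was 1.06 ± 0.25 higher with PQ than with NAC (adjusted p = 0.0032, and 0.15 without PQ replicate 2). Its relative Mx1 rose by 1.36 ± 0.38 with PQ (edgeR adjusted p = 0.019, and 0.19 without control replicate 1), and Atl1, which shapes the endoplasmic reticulum, fell with NAC (-1.11 ± 0.36, adjusted p = 0.038, and 0.43 without control replicate 2).

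The genes whose pattern over the 6 libraries was most like that of the family sum were found among 10778 genes with a mean of 5 CPM or more over the 6 libraries, by the root mean square difference of centred log2 CPM. They were Lcn2 (difference 0.092), Mylk (0.107), Calr3 (0.113), Parp14 (0.14) and Sulf1 (0.142). Lcn2, which encodes the iron-carrier-binding protein lipocalin-2, measured 57.5 and 70.3 CPM in control, 138 and 166 CPM with PQ and 125 and 132 CPM with NAC. The members themselves ranged from 0.133 (Gbp3) to 0.445 (Gbp2b), so Lcn2 lay nearer to the family sum than any 1 member did. With 6 libraries in 3 groups this is a description of likeness in these libraries.

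Immune cells can express this family strongly, so their markers were read beside it. Of 17 microglia and blood cell markers 14 had any count and 4 passed the filter, and the defining genes Tyrobp, C1qc and Spi1 were at 0 in all 6 libraries. The summed level was 11.0 and 12.0 CPM in control, 16.9 and 19.7 CPM with PQ and 43.4 and 42.4 CPM with NAC. This sum was above control with both agents, as the family sum was. The NAC libraries of the marker sum lay above its PQ libraries, and those of the family sum overlapped. With NAC most of the marker sum came from Cd14 (30.5 and 31.4 CPM, against 3.84 and 4.78 in control). Aif1, Trem2, C1qa, C1qb and Ptprc did not exceed 0.285 CPM in any library. The microglial receptor gene P2ry12 was higher, at 3.03 and 3.64 CPM in control, 4.48 and 5.23 with PQ and 8.99 and 6.04 with NAC. Cx3cr1 was at 1.95 to 3.54 CPM and Cd68 at 1.01 to 2.57 CPM over the 6 libraries. Of the 4 tested, Cd14 and P2ry12 rose with NAC (edgeR, adjusted p under 0.05) and 0 were called with PQ. Over all tested genes 8.65% rose with NAC and 17.9% were called with PQ. Of the 10 endothelial markers 9 had counts, with sums of 83.5 and 88.4 CPM in control, 109 and 125 with PQ and 87.4 and 108 with NAC that were nearly all Flt1, and Cldn5 was at 0. Of the 8 astrocyte markers all 8 had counts, with sums of 530 and 535 CPM in control, 611 and 666 with PQ and 552 and 559 with NAC, most of them from Gja1. Gja1 was at 392.1 and 409 CPM in control, 518 and 473 with PQ and 302 and 294 with NAC. Aldoc, Aqp4 and Gfap were higher with NAC instead. Aldoc was at 79.9 and 72.4 CPM in control and 162 and 162 with NAC, Aqp4 at 3.64 and 4.16 against 13.5 and 12.9, and Gfap at 5.96 and 4.57 against 11.0 and 13.8. Of the 7 tested, 2 rose with PQ, and 4 rose and 1 fell with NAC. The shares over all tested genes were 9.07% higher with PQ, and 8.65% higher and 9.26% lower with NAC. What part other cells have in the level of the guanylate-binding proteins was not tested beyond these values.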

How the data were processed

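Per the file headers, the deposited tables give for every gene and library an expected count beside its FPKM. The authors' expected counts are estimates, and 20.9% to 21.4% of the values in a library are not whole. FPKM values deposited by the authors were used for levels between genes and for alternatives. Per the submitters' processing notes the genome was mm10 and the tools were RSEM, HISAT2 2.0.4 and Bowtie2 2.2.5, with no role given, and use of strand is not given in the sources used here. The members' Entrez identifiers were matched by symbol, and genes missing from a table were set to 0.

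Rounded expected counts were tested in R 4.3.3 with edgeR 4.0.16 (filterByExpr with minimum count 10 and minimum total 15, TMM, quasi-likelihood fit, 1 mean per group, 6 libraries, 3 residual degrees of freedom). Adjusted p-values are Benjamini-Hochberg over 12813 genes, with a threshold of 0.05. CPM use TMM factors, and sums of members were fitted as added rows. The standard error (SE) is the absolute log2 fold change over the square root of the F statistic. The script was tested on simulated data. The alternatives used DESeq2 1.42.0, limma 3.58.1 on log2(FPKM + 1) or log2(FPKM + 0.1), other scalings, no filter, fewer groups, each library left out, and a block by library number.

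The members and the gene lists were chosen with earlier results of these data known, and 2 listed genes are not reported here. The genes named are the members, up to 5 genes called per direction of each list or otherwise the 4 with the smallest p, and the 5 genes most like the family sum. Neighbouring genes, the sum with Gbp11 and the block were added after seeing the data. Promoters are from RefSeq (GRCm38.p6) and transcripts from GENCODE. Sequences were aligned with Biopython 1.88, and values were tabulated and drawn in Python 3.11.15 (matplotlib 3.10.9, pandas 2.3.3).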

Additional observations from a re-analysis of the deposited data

How the results depend on the processing

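The family sum kept its direction and its side of the threshold against control under all 16 alternatives, at 1.06 to 1.27 on the log2 scale with PQ and 1.03 to 1.24 with NAC. In PQ against NAC it ran from -0.03 (without PQ replicate 2) to 0.18 and was past the threshold in none of the 16 alternatives. Over 15 alternatives for each of the 10 members, the direction held in all with PQ and with NAC. The member counts past the threshold were 8 to 10 with PQ and 8 to 10 with NAC. In PQ against NAC they were 2 by DESeq2, 2 by limma on log2(FPKM + 1) and 2 by limma on log2(FPKM + 0.1), and 0 to 4 when 1 library was left out. In these last fits a lone library is assumed to vary like the other groups. The members kept by DESeq2 and by both limma fits were Gbp4 and Gbp9, and those lost were Gbp2 and Gbp2b.

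Over all genes, leaving out 1 library gave 829 to 2181 calls with PQ (2289 in the full fit), 1338 to 2157 with NAC (2294) and 2427 to 4442 in PQ against NAC (3926). The calls in the pathway lists were then 13 to 25 with PQ (27), 9 to 17 with NAC (16) and 9 to 24 in PQ against NAC (20). Scaling by library size alone gave 1332 higher and 965 lower genes with PQ (1162 and 1127 with TMM) and 1392 and 986 with NAC (1108 and 1186).

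Directions reversed for some small differences, and the cause was not tested. In PQ against NAC these were Gbp6 with Gbp10 (-0.16), Gbp6 (-0.18) and Gbp10 (-0.12) without PQ replicate 2, Gbp7 (-0.04) without NAC replicate 2 and Gbp8 (-0.31) without NAC replicate 1, and the highest values with a library left out were 0.29, 0.29, 0.28, 0.23 and 0.86. Gabarapl1 had 0.11 without PQ replicate 1 and 0.05 without NAC replicate 2, and Gbp11 had -0.03 and -0.06 by limma, -0.54 without PQ replicate 2 and -0.25 without NAC replicate 1 (up to 0.40). With PQ, Atl1 had 0.0 and 0.03 by limma, 0.47 without control replicate 2 and 0.01 without PQ replicate 1 (down to -0.46). With NAC, Irgq had 0.04 by library size and both limma fits, 0.09 without control replicate 1 and 0.03 without NAC replicate 1 (down to -0.09). Mx1 had -0.32 without control replicate 1 (up to 0.96) and Usp18 had -0.08 without NAC replicate 1 (up to 0.30).

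Depth limits Gbp8 most, with fewer than 39 counts in a library, and 19.2% of its 50-base windows also occurred in other members. The library numbers form 2 consecutive sets, 8 to 10 and 11 to 13, each with 1 library of every group, and no label says that a set marks a batch or culture. The differences between the sets within a group had correlations across 12813 genes of -0.07 (control with PQ), -0.11 (control with NAC) and 0.11 (PQ with NAC), so the sets are not taken as pairs. A fit with the set as a replicate block, added after seeing the data and with 2 residual degrees of freedom, gave 10, 9 and 4 members past the threshold (PQ, NAC, PQ against NAC), family sums of 1.17, 1.09 and 0.08, and 1842, 1901 and 3485 genes. It changed no call of a member, but lost Chml, Fnta, Fntb and Map1lc3b with PQ, Atg7 and Casp1 with NAC and Map1lc3b in PQ against NAC, and there Gbp11 had -0.02. A test by permutation of 2 against 2 libraries cannot reach the threshold and was not run.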
